A study of Mus musculus with 9 samples.

Results

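Adult mouse monocytes kept for 4 h with P7 platelets were compared with monocytes kept for the same time in control buffer, across every gene with enough counts to be tested. P7 is the usual short form of postnatal day 7 in mice. Of the 9 libraries of the study, 6 belong to this comparison, 3 for P7 platelets and 3 for control. The other 3, from monocytes kept with adult platelets, share the estimate of the spread and serve for a direct test of P7 against adult platelets. The cells were washed before RNA was taken, and polyadenylated RNA was sequenced. Strain, sex, genotype and exact age of the mice, the ratio of platelets to monocytes and the purity of either preparation are not stated in the labels. They also do not say whether the replicates were separate animals or cultures. If they were not, a p-value speaks only of the spread among these libraries, which may be technical.

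Of 55367 gene symbols, 13707 were tested. A level is a normalised CPM, the counts of a gene relative to the scaled total of its library, and stands as mean ± SD over n = 3 libraries unless each library is given. A difference is a log2 fold change of P7 platelets over control ± SE, and a gene was called when its adjusted p was below 0.05. Genes with a control mean of at least 1 CPM, 11255 in number, are described apart from the 2452 genes below that level, since a transcript nearly absent from control monocytes may have come in with the platelets or with red cells among them. The level of a gene in bulk RNA cannot tell fewer cells of a type from less RNA per cell.

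Monocytes are circulating phagocytes that can become macrophages in tissues. Platelets are fragments of megakaryocytes without a nucleus, which hold RNA, bind monocytes and release mediators. Type I interferon acts through STAT and IRF factors on genes with an interferon-stimulated response element. Signals from microbes, cytokines and cell contact act through NF-kB on genes of cytokines and on genes of the proteins that end the response.

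The libraries held the genes that define monocytes at high levels. Csf1r, the receptor of macrophage colony-stimulating factor, averaged 2038 ± 65.02 CPM in control and 3389 ± 204 CPM with P7 platelets. Lyz2, the myeloid lysozyme, averaged 17181 ± 768 and 21119.5 ± 2591 CPM. Platelet transcripts, 29 genes of the platelet list summed without Thbs1, which monocytes also make, made up 0.00383% ± 0.000172 of the counts in control and 0.293% ± 0.0279 with P7 platelets. With Thbs1 the sum over all 30 genes was 0.583% ± 0.129 in control and 0.462% ± 0.0374 with P7 platelets, and the libraries overlapped (exact permutation p = 0.2). Globin and Alas2 transcripts of red cells, 13 genes summed, made up 0.00105% ± 0.000149 in control and 4.92% ± 0.574 with P7 platelets. With adult platelets the platelet sum without Thbs1 and the red cell sum were 0.232% ± 0.0667 and 0.0973% ± 0.0718. The 37 mitochondrially encoded genes made up 1.47% ± 0.255 in control and 2.38% ± 0.0449 with P7 platelets. The rRNAs mt-Rnr1 and mt-Rnr2 held most of this difference, with 0.148% ± 0.0149 in control and 1.03% ± 0.161 with P7 platelets, while the other 35 genes summed to 1.32% ± 0.240 and 1.35% ± 0.130 (exact permutation p = 1). Control and P7 libraries were apart in the platelet sum without Thbs1, the red cell sum, the whole mitochondrial sum and the rRNA sum (p = 0.1 for each in a two-sided exact permutation test, which groups of 3 cannot go below). The part of carried transcripts in the change of any single gene was not tested.

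Markers of other cells were summed in the same way. B and plasma cell markers (exact permutation p = 0.5), T and NK cell markers (p = 0.2), neutrophil markers (p = 0.6) and mast cell, basophil and eosinophil markers (p = 0.6) overlapped between control and P7 libraries. Dendritic cell genes made up 0.0157% of counts in control and 0.00938% with P7 platelets, and progenitor markers 0.0167% and 0.0112%. Endothelial, stromal and epithelial markers were at 0.00154% and 0.00289%. The control and P7 libraries did not overlap in these last 3 sums (exact permutation p = 0.1 for each). Members did not all move with their sums. At 1 CPM or more in control, 2 of 9 dendritic cell genes rose and 3 fell. Of 12 progenitor markers 2 rose and 3 fell. Of 3 endothelial, stromal and epithelial markers 1 rose, and of 6 B and plasma cell markers 2 rose, with none lower in either. Over all genes of that level 30.3% rose and 33.2% fell. The B cell marker Cd79a was called higher in the main fit. Its call was lost with upper-quartile scaling and without adult replicate 3, control replicate 2 or 3 or any 1 P7 library (adjusted p = 0.0508 to 0.131). Igkc, the immunoglobulin kappa light chain, was high in replicate 1 of both groups, at 668 and 606 CPM of the library total, against 131 to 172 CPM in replicates 2 and 3.

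Of the 13707 genes, 8111 changed, which is 59.2%. Among genes with a control mean of at least 1 CPM, 3407 rose (30.3%) and 3733 fell (33.2%), with a median log2 fold change of -0.03. At least 2-fold rises were called for 649 genes (5.77%) and at least 2-fold falls for 767 genes (6.81%). The control and P7 libraries did not overlap for 8287 of the 11255 genes (73.6%). The counts for gene groups below stand beside 30.3% and 33.2%, since most genes changed. Members of the groups were chosen with earlier results of these data known, so these counts are descriptions and not tests. With upper-quartile scaling, which moved the median over all genes by -0.10, the same class had 2629 rises and 4682 falls, so the share of rises among the calls went from 47.7% to 36.0%.

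The balance of large changes differed with the level of a gene in control. Among the 3051 genes at 1 to 10 CPM, 281 rose and 429 fell at least 2-fold. Among the 5921 genes at 10 to 100 CPM, 259 rose and 274 fell by that much. Among the 2283 genes at 100 CPM or more, 109 rose and 64 fell by that much. In these classes, genes at 100 CPM or more in control thus had more large rises than large falls. Genes at 1 to 10 CPM had more large falls than rises. Among the 2452 genes below 1 CPM in control, 627 rose and 207 fell at least 2-fold. A cut on the control level uses 1 side of the comparison, and the balance depends on it. With a split at a mean of 1 CPM over all 9 libraries, 903 genes above it rose and 680 fell at least 2-fold. With a split at a control mean of 5 CPM, 455 rose and 453 fell by that much.

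**Figure D1:**
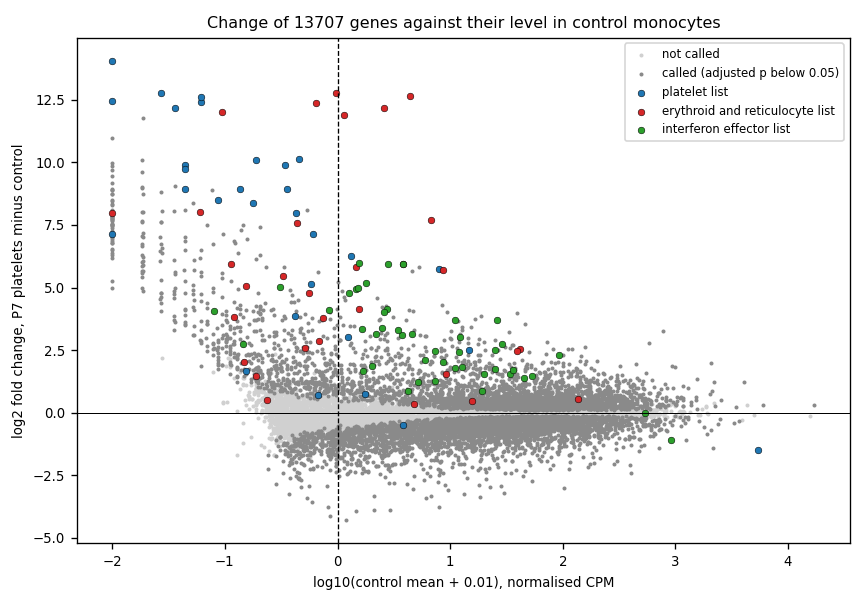
Each point is 1 of the 13707 genes tested, placed by its control mean in normalised CPM (log10 axis, 0.01 added) and its log2 fold change, with P7 platelets over control. The dashed line marks 1 CPM. Platelet transcripts (blue) lie mostly left of it and rise steeply, erythroid transcripts (red) rise on both sides, and interferon effectors (green) lie mostly to its right, with Samhd1 below zero.

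Red cell, platelet and interferon-induced transcripts made up most of the strongest rises among genes at 1 CPM or more in control. Hbb-bs and Hbb-bt (beta globin), Hba-a1 (alpha globin), Bpgm (bisphosphoglycerate mutase) and Slc4a1 (the anion exchanger band 3) rose by log2 fold changes of 12.67, 11.88, 12.17, 7.68 and 5.83. The globin genes have near-identical copies that can share reads. Vwf and Itga2b, which encode von Willebrand factor and the platelet integrin alpha IIb, rose by 6.25 and 5.73. The others were Ifit1, Rsad2, Isg20 and Ube2l6, which interferon induces, and Tent5c, a poly(A) polymerase.

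Ifit1, an interferon-induced protein that binds foreign RNA, stood at 1.63, 0.971 and 2.001 CPM in the control libraries and 64.4, 103 and 128 CPM with P7 platelets (a log2 fold change of 5.998 ± 0.36, adjusted p = 1.89e-06). Rsad2, which encodes the antiviral enzyme viperin, stood at 2.63, 2.41 and 3.29 CPM in the control libraries and 144, 164 and 203 CPM with P7 platelets (a log2 fold change of 5.94 ± 0.19, adjusted p = 2.67e-07). The adult platelet libraries had 1.81, 2.75 and 1.19 CPM of Ifit1 and 4.36, 3.66 and 2.94 CPM of Rsad2, close to control.

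Isg20, an exonuclease induced by interferon, stood at 3.83, 3.96 and 3.72 CPM in the control libraries and 269, 209 and 229.9 CPM with P7 platelets (a log2 fold change of 5.94 ± 0.19, adjusted p = 2.67e-07). Ube2l6, the conjugating enzyme for ISG15, stood at 9.43, 8.24 and 8.23 CPM in the control libraries and 514, 393 and 451 CPM with P7 platelets (a log2 fold change of 5.71 ± 0.27, adjusted p = 7.31e-07). Tent5c stood at 6.98, 3.75 and 5.09 CPM in the control libraries and 352, 255 and 299 CPM with P7 platelets (a log2 fold change of 5.84 ± 0.24, adjusted p = 4.17e-07). Isg20 and Ube2l6 also belong to the list of transcripts of maturing red cells, and these 3 genes rose in the libraries in which globin transcripts made up 4.36 to 5.50% of the counts. Their share from red cells was not tested.

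The 12 strongest falls held no member of the carried transcript lists. Transcripts that come in with platelets or red cells add to the P7 libraries, so this absence is no result. Rnf150, a ubiquitin ligase of the RING family, stood at 13.1, 20.6 and 21.4 CPM in the control libraries and 1.17, 1.89 and 2.25 CPM with P7 platelets (a log2 fold change of -3.37 ± 0.28, adjusted p = 1.18e-05). Abca6, a lipid transporter of the ABC family, stood at 30.3, 28.8 and 30.3 CPM in the control libraries and 3.31, 3.20 and 3.05 CPM with P7 platelets (a log2 fold change of -3.22 ± 0.17, adjusted p = 1.26e-06). Arhgef18, an exchange factor that activates small GTPases, stood at 98.98, 107 and 100.5 CPM in the control libraries and 14.1, 12.97 and 11.3 CPM with P7 platelets (a log2 fold change of -3.000 ± 0.16, adjusted p = 1.29e-06). The 12 rises and 12 falls were chosen among genes whose control and P7 libraries do not overlap, so that separation is no result. The adult platelet means of Rnf150, Abca6 and Arhgef18 lay between control and P7, at 5.91 ± 1.34, 14.04 ± 3.66 and 59.3 ± 13.8 CPM.

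Fbxo32, the FOXO target atrogin-1, fell from 18.01 ± 1.35 to 2.44 ± 0.410 CPM (a log2 fold change of -2.88 ± 0.15, adjusted p = 1.12e-06). Pdcd4, an inhibitor of translation, fell from 43.9 ± 2.56 to 7.66 ± 1.32 CPM (a log2 fold change of -2.52 ± 0.12, adjusted p = 7.31e-07). Hpgd, the enzyme that inactivates prostaglandins, fell from 401 ± 43.2 to 75.4 ± 6.54 CPM (a log2 fold change of -2.41 ± 0.09, adjusted p = 3.74e-07). Ndnf, a secreted neurotrophic protein, had a log2 fold change of -2.95, and Ypel2, Cnnm2, Nat8l, Mettl7a1 and Abhd15 had -2.94, -2.74, -2.67, -2.43 and -2.42.

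**Figure D2:**
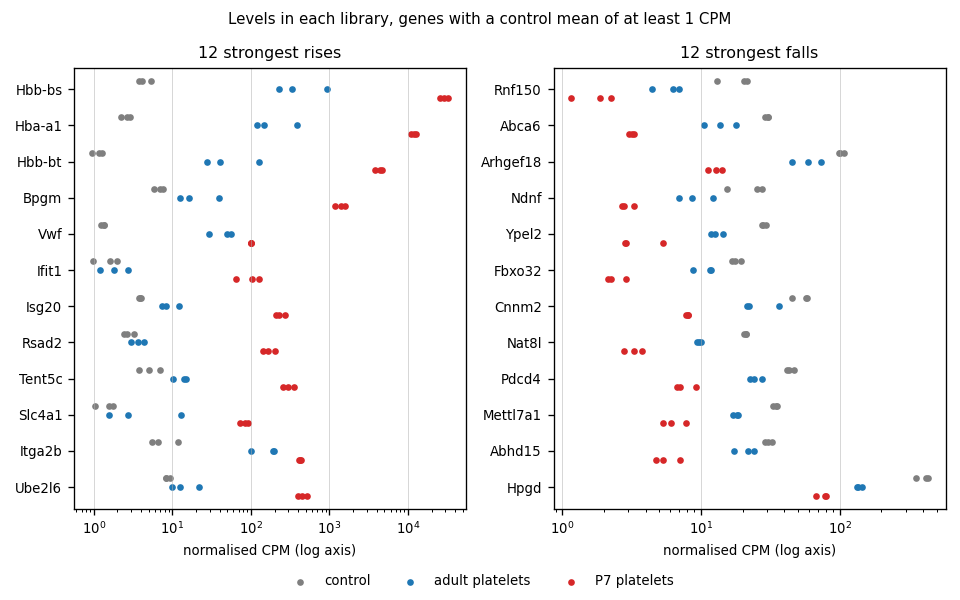
Normalised CPM (log axis) in each of the 3 control (grey), 3 adult platelet (blue) and 3 P7 platelet (red) libraries, for the 12 strongest rises and the 12 strongest falls among genes at 1 CPM or more in control with a mean log2 CPM of at least 3. The genes were chosen as having control and P7 libraries that do not overlap. Ifit1 and Rsad2 have adult platelet libraries near control, while the platelet genes Vwf and Itga2b have adult libraries between control and P7 platelets.

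By amount of RNA rather than by fold, the gains were led by Hbb-bs, Hba-a1, the mitochondrial rRNA mt-Rnr2, Fth1, Actb and Hbb-bt. Fth1, the heavy chain of ferritin that stores iron, rose from 2089.9 ± 341 to 8330.5 ± 542 CPM (a log2 fold change of 1.99 ± 0.15, adjusted p = 5.61e-06). Actb, beta actin, rose from 4068 ± 85.7 to 9550.5 ± 721 CPM (a log2 fold change of 1.23 ± 0.07, adjusted p = 1.65e-06). The mitochondrial rRNA mt-Rnr2 rose from 784 ± 92.2 to 7479 ± 1188 CPM and averaged 5913 ± 521 CPM with adult platelets.

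The losses were led by Thbs1, which encodes the matrix glycoprotein thrombospondin 1 and is made by both monocytes and platelets. It stood at 4005, 5563 and 6543 CPM in the control libraries and 1995, 1852 and 1836 CPM with P7 platelets (a log2 fold change of -1.50 ± 0.28, adjusted p = 0.00125). Apoe, the lipid-carrying apolipoprotein E, stood at 2012, 2190.2 and 2307 CPM in the control libraries and 831, 814 and 822 CPM with P7 platelets (a log2 fold change of -1.40 ± 0.08, adjusted p = 1.52e-06). Psap, the precursor of the saposins of lysosomes, fell from 3642 ± 40.8 to 2919.8 ± 153 CPM, Eef2, the translation elongation factor, from 3314 ± 75.3 to 2501 ± 21.9 CPM, Ahnak, a large scaffold protein, from 1922 ± 280.5 to 1072 ± 72.8 CPM, and Vim, vimentin, from 2083 ± 219 to 1300.4 ± 117 CPM. Thbs1 is a member of the platelet list, of which 7 members were at 1 CPM or more in control. Of these 4 rose, Itga2b, Itgb3, Vwf and Slc24a3, while Thbs1 fell and Selp and Sparc did not pass the test.

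Interferon effectors are proteins that degrade, bind or sequester viral RNA and proteins. Of 41 listed effectors at 1 CPM or more in control, 39 rose, 1 fell and 1 did not pass the test (median log2 fold change 2.48, against -0.03 over all genes of that class). At least 2-fold rises were called for 37 of them. Isg15, the ubiquitin-like modifier, stood at 1.38, 2.05 and 1.92 CPM in the control libraries and 54.2, 66.1 and 74.02 CPM with P7 platelets (a log2 fold change of 5.18 ± 0.22, adjusted p = 4.67e-07). Ifit2, a relative of Ifit1, rose from 2.75 ± 0.0490 to 49.02 ± 12.6 CPM (a log2 fold change of 4.15 ± 0.20, adjusted p = 7.35e-07). The control and P7 libraries were far apart in both.

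Both exceptions were abundant in control. Samhd1, which limits the supply of nucleotides for viral DNA, fell from 922 ± 43.4 to 433 ± 20.004 CPM (a log2 fold change of -1.09 ± 0.06, adjusted p = 1.25e-06). Ifitm3, which hinders entry of viruses, averaged 537 ± 13.6 CPM in control and 534 ± 41.5 CPM with P7 platelets (a log2 fold change of -0.01 ± 0.07, adjusted p = 0.928).

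Promoter windows are shown for Rsad2, Ifit1, Isg15, Cxcl10 and Nfkbia, because each held a match to a core named below. Windows of Irf7, Tnf and Sod2 were also searched, held no match and are not shown. The windows run from 250 bases before to 50 bases after the start of the gene, from RefSeq on GRCm38.p6, 5′ to 3′ on the strand of the gene. Capitals mark a match to the core of the interferon-stimulated response element, GAAANNGAA, or, in Nfkbia, also to a core of the NF-kB site, GGGANTTTC, on either strand. Rsad2 (chr12:26456403-26456702, minus strand) has 1 match to the first core, Ifit1 (chr19:34640639-34640938, plus strand) and Isg15 (chr4:156200769-156201068, minus strand) have 3 each, partly overlapping, and Cxcl10 (chr5:92348840-92349139, minus strand) has 1. Nfkbia (chr12:55492598-55492897, minus strand) has 1 match to the first core and 2 to the second.
Rsad2: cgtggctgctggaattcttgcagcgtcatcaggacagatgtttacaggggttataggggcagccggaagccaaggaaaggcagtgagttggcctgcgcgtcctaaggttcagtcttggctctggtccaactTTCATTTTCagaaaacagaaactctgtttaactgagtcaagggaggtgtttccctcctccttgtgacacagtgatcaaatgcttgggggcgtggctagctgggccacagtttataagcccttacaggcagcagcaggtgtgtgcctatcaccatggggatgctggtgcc
Ifit1: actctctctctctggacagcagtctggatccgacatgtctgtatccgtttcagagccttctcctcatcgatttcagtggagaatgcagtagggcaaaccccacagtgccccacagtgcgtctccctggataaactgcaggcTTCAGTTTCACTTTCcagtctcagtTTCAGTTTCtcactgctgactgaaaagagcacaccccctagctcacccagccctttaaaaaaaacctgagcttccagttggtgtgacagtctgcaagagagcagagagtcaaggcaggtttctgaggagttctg
Isg15: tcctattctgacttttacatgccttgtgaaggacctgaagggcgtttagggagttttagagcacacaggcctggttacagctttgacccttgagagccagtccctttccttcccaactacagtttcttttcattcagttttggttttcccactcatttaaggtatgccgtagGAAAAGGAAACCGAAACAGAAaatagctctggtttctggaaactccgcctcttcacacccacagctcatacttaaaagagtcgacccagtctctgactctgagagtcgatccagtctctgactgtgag
Cxcl10: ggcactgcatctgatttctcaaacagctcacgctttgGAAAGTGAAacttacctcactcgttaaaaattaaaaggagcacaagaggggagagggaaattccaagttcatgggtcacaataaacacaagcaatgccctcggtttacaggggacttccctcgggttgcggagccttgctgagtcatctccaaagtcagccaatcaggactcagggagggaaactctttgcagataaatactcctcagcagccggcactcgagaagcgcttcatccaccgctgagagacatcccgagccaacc
Nfkbia: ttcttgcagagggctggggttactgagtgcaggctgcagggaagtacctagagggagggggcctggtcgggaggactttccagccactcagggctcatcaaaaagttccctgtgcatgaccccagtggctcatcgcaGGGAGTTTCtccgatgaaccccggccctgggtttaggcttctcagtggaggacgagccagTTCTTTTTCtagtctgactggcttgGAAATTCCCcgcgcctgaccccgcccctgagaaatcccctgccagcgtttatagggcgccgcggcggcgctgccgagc

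The core of the interferon element was found in 21 of the 32 interferon effectors with a window in the table (65.6%), and in 2638 of the 27025 genes of the table (9.76%). The core of the NF-kB site was found in 1.29% of the genes of the table. A window was found for 32 of 41 effectors and for 8759 of 11255 genes, under 80% of each, so these shares describe the matched genes and not the groups. Among genes that rose at least 2-fold, 78 of 491 windows held the core (15.9%), and among genes that fell at least 2-fold, 38 of 562 did (6.76%). Over all genes at 1 CPM or more in control, 778 of 8759 did (8.88%). The 491 windows include those of interferon effectors that rose. Among cytosolic ribosomal protein genes, of which none was called higher, 11 of 54 windows held the core (20.4%). A match is a run of letters and not a shown binding site, and the windows of Irf7, Tnf and Sod2 held neither core.

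Sensors of nucleic acids and microbes moved both ways. Of 27 sensors and adaptors at 1 CPM or more in control, 13 rose, 9 fell and 5 did not pass the test (median 0.22). Ddx58, which encodes the RNA sensor RIG-I, stood at 11.95, 11.3 and 12.9 CPM in the control libraries and 68.9, 98.9 and 108 CPM with P7 platelets (a log2 fold change of 2.93 ± 0.15, adjusted p = 1.10e-06). Ifih1, which encodes the RNA sensor MDA5, rose from 18.5 ± 1.51 to 91.4 ± 19.5 CPM and Dhx58, their relative LGP2, from 14.5 ± 1.42 to 50.9 ± 8.41 CPM. Zbp1, a sensor of Z-form nucleic acid, rose from 13.3 ± 1.78 to 52.4 ± 9.88 CPM, and Ifi204, a DNA-binding protein of the Ifi200 family, from 116 ± 8.99 to 340.0 ± 45.5 CPM.

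Receptors for bacterial products moved both ways. Tlr4, the receptor for lipopolysaccharide, stood at 96.3, 67.2 and 74.2 CPM in the control libraries and 29.01, 20.4 and 20.04 CPM with P7 platelets (a log2 fold change of -1.77 ± 0.23, adjusted p = 0.000134). Tlr5, the receptor for flagellin, stood at 10.9, 13.5 and 15.6 CPM in the control libraries and 3.41, 2.22 and 2.06 CPM with P7 platelets (a log2 fold change of -2.37 ± 0.27, adjusted p = 6.97e-05). Neither gene had a P7 library within the range of control. In contrast Tlr2, the receptor for lipoproteins, rose from 508 ± 32.2 to 1121 ± 25.6 CPM, Nod2, a sensor of bacterial peptidoglycan, from 17.9 ± 2.10 to 75.8 ± 15.3 CPM, and Cd14, the coreceptor of Tlr4, from 834 ± 90.8 to 1653 ± 244 CPM. The adaptors Mavs and Sting1, which carry the signals of RNA and DNA sensors, fell, with log2 fold changes of -0.63 (adjusted p = 4.04e-05) and -0.63 (adjusted p = 0.00121).

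The factors that carry the interferon signal were among the rises of the IRF and STAT genes. Of 16 such genes, 7 rose, 5 fell and 4 did not pass the test (median 0.16). Irf7, which amplifies type I interferon, stood at 24.9, 25.5 and 29.05 CPM in the control libraries and 109, 158 and 182 CPM with P7 platelets (a log2 fold change of 2.50 ± 0.17, adjusted p = 4.47e-06). Stat2 rose from 68.9 ± 0.920 to 194 ± 45.97 CPM (a log2 fold change of 1.49 ± 0.15, adjusted p = 3.17e-05) and Irf9 from 70.4 ± 2.79 to 182 ± 27.9 CPM (a log2 fold change of 1.37 ± 0.10, adjusted p = 5.61e-06). Stat5b, which serves growth factor receptors, fell from 196 ± 10.3 to 122 ± 3.39 CPM (a log2 fold change of -0.69 ± 0.05, adjusted p = 5.82e-06).

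Cytokine receptors changed both ways, with 13 of 27 higher, 6 lower and 8 not past the test (median 0.29). Ifngr1, the ligand-binding chain of the interferon gamma receptor, stood at 711, 710.2 and 728 CPM in the control libraries and 278, 267 and 263 CPM with P7 platelets (a log2 fold change of -1.41 ± 0.06, adjusted p = 4.71e-07). Ifngr2, the second chain of the same receptor, rose from 297 ± 7.90 to 429.8 ± 8.81 CPM (a log2 fold change of 0.53 ± 0.05, adjusted p = 2.61e-05). The chains of 1 receptor thus moved in opposite directions. Il6ra, the receptor chain for interleukin 6, fell from 472 ± 15.7 to 230.5 ± 27.4 CPM (a log2 fold change of -1.03 ± 0.09, adjusted p = 1.28e-05), while Tnfrsf1b, a receptor for TNF, rose from 1179.9 ± 87.3 to 2438 ± 174 CPM and Il2rg, the common gamma chain, from 46.2 ± 3.19 to 157 ± 11.7 CPM. Il21r rose from 5.95 ± 0.601 to 17.6 ± 3.57 CPM and averaged 18.4 ± 0.390 CPM with adult platelets.

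Of 12 secreted cytokines at 1 CPM or more in control, 9 rose, 2 fell and 1 did not pass the test (median 1.19). Tnf stood at 52.3, 38.95 and 46.2 CPM in the control libraries and 406, 597 and 607 CPM with P7 platelets (a log2 fold change of 3.55 ± 0.27, adjusted p = 7.48e-06). Il1rn, which encodes the antagonist of the interleukin 1 receptor, rose from 33.3 ± 9.46 to 314 ± 88.3 CPM (a log2 fold change of 3.24 ± 0.29, adjusted p = 1.77e-05), and Il1b, an agonist of that receptor, from 552 ± 79.4 to 1648 ± 343 CPM (a log2 fold change of 1.58 ± 0.17, adjusted p = 5.16e-05). Il18, an activator of interferon gamma production, rose from 3.77 ± 0.626 to 14.99 ± 2.45 CPM. The 2 that fell were Csf1, the macrophage growth factor, from 83.7 ± 21.9 to 41.2 ± 12.97 CPM (a log2 fold change of -1.02 ± 0.25, adjusted p = 0.00676), and Il15, a growth factor of NK cells, from 7.37 ± 1.07 to 3.35 ± 0.510 CPM (a log2 fold change of -1.14 ± 0.23, adjusted p = 0.00208).

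Among chemokines, 9 of 11 rose, each at least 2-fold, 1 fell and 1 did not pass the test (median 2.48). Cxcl10, which attracts T cells and is induced by interferon, stood at 5.73, 3.78 and 4.20 CPM in the control libraries and 141, 235 and 314 CPM with P7 platelets (a log2 fold change of 5.65 ± 0.36, adjusted p = 2.61e-06). Ccl5, another T cell attractant, rose from 1.12 ± 0.559 to 27.3 ± 12.2 CPM, Ccl4 from 4.31 ± 1.41 to 73.7 ± 28.3 CPM and Ccl3 from 17.7 ± 4.89 to 119.5 ± 34.7 CPM. Cxcl2, which attracts neutrophils, rose from 8.31 ± 1.85 to 46.4 ± 6.31 CPM, and Cxcl16, a membrane-bound chemokine, from 100.4 ± 9.68 to 494 ± 18.8 CPM. Cx3cl1, Ccl22 and Ccl24 were the other members that rose, and Ccl9, at 639.9 ± 49.4 and 586 ± 24.8 CPM, was called lower with upper-quartile scaling only among the scalings (adjusted p = 0.0369). Ccl6, a chemokine of myeloid cells, fell from 299 ± 3.13 to 129 ± 18.4 CPM (a log2 fold change of -1.22 ± 0.10, adjusted p = 1.33e-05).

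Receptors for chemoattractants moved in both directions, with 11 of 21 higher, 7 lower and 3 not past the test (median 0.95). Cmklr1, the chemerin receptor, stood at 5.63, 3.94 and 4.58 CPM in the control libraries and 92.4, 74.01 and 68.6 CPM with P7 platelets (a log2 fold change of 4.05 ± 0.24, adjusted p = 1.88e-06). Ptafr, the receptor for platelet-activating factor, rose from 177 ± 17.9 to 611 ± 33.01 CPM (a log2 fold change of 1.79 ± 0.11, adjusted p = 2.40e-06). The formyl peptide receptors Fpr1 and Fpr2 rose from 33.6 ± 9.68 to 129 ± 14.7 CPM and from 51.9 ± 11.4 to 194 ± 3.01 CPM, and C5ar1, the receptor for complement fragment C5a, rose from 143 ± 19.3 to 309 ± 16.4 CPM. S1pr4, a receptor for sphingosine 1-phosphate, stood at 20.3, 21.9 and 19.8 CPM in the control libraries and 4.89, 3.43 and 3.56 CPM with P7 platelets (a log2 fold change of -2.38 ± 0.15, adjusted p = 2.48e-06). Ccr2, which draws monocytes to inflamed tissue, fell from 2379 ± 231 to 1747 ± 309 CPM (a log2 fold change of -0.45 ± 0.12, adjusted p = 0.0106).

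Adhesion genes had 10 of 20 higher, 4 lower and 6 not past the test (median 0.30). Icam1, which binds leukocyte integrins, rose from 99.9 ± 10.1 to 361 ± 56.3 CPM (a log2 fold change of 1.85 ± 0.26, adjusted p = 0.000256), Itga5, a chain of the fibronectin receptor, from 302 ± 17.5 to 860.3 ± 37.2 CPM (a log2 fold change of 1.51 ± 0.08, adjusted p = 1.39e-06), and Itgb2, the common chain of the leukocyte integrins, from 1035 ± 36.2 to 1449.8 ± 18.3 CPM. Selplg, the ligand through which monocytes bind P-selectin on platelets, fell from 257 ± 2.04 to 158 ± 5.34 CPM (a log2 fold change of -0.70 ± 0.07, adjusted p = 2.45e-05). Cd81, a tetraspanin, rose from 3.76 ± 0.164 to 9.63 ± 1.77 CPM, and with adult platelets averaged 11.2 ± 2.19 CPM.

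NF-kB subunits, their inhibitors and kinases rose together. Of 20 such genes 17 rose, 1, the kinase gene Ikbkb, fell (a log2 fold change of -0.19 ± 0.05, adjusted p = 0.00793) and 2 did not pass the test (median 0.72). Traf1, an adaptor of TNF receptors, stood at 63.8, 68.2 and 82.3 CPM in the control libraries and 293, 395 and 388 CPM with P7 platelets (a log2 fold change of 2.33 ± 0.19, adjusted p = 1.14e-05). Nfkbia, which encodes the inhibitor IkB alpha, stood at 244, 215 and 240.4 CPM in the control libraries and 586, 717 and 767 CPM with P7 platelets (a log2 fold change of 1.56 ± 0.15, adjusted p = 2.53e-05), and its promoter is printed above. Relb and Nfkbib rose from 69.8 ± 3.21 to 182 ± 21.2 CPM and from 56.5 ± 2.24 to 131 ± 21.4 CPM.

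Genes that restrain inflammation had 18 of 24 members higher, 2 lower and 4 not past the test (median 0.86). Socs3, which blocks cytokine receptor kinases, stood at 30.96, 18.9 and 25.3 CPM in the control libraries and 138, 197 and 225 CPM with P7 platelets (a log2 fold change of 2.90 ± 0.24, adjusted p = 1.13e-05). Tnfaip3, the ubiquitin-editing enzyme A20, rose from 99.6 ± 13.2 to 389 ± 54.1 CPM (a log2 fold change of 1.97 ± 0.24, adjusted p = 0.000102), and Tnip1, its partner, from 159 ± 10.3 to 616 ± 49.9 CPM. The phosphatases Dusp1 and Dusp2, which act on MAP kinases, rose from 40.02 ± 6.91 to 108 ± 2.22 CPM and from 21.98 ± 3.35 to 87.1 ± 17.1 CPM, and Trib1, a pseudokinase, from 61.8 ± 9.03 to 189.5 ± 11.6 CPM. The members that fell were Zfp36l2, an mRNA decay factor, from 607 ± 52.1 to 371 ± 73.3 CPM (a log2 fold change of -0.71 ± 0.16, adjusted p = 0.00406), and Dusp5, a phosphatase of ERK, from 47.6 ± 9.82 to 31.6 ± 8.76 CPM (a log2 fold change of -0.59 ± 0.20, adjusted p = 0.0309). The call of Dusp5 was lost without control replicate 2 or 3 or P7 replicate 1, and with only the control and P7 libraries in the fit (adjusted p = 0.0534 to 0.1003).

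Of 24 AP-1 and immediate-early genes, 15 rose, 3 fell and 6 did not pass the test (median 0.53). Fosl1 rose from 2.72 ± 0.559 to 15.5 ± 1.87 CPM, Atf3 from 23.6 ± 3.24 to 72.7 ± 10.5 CPM and Junb from 259 ± 1.83 to 517 ± 68.7 CPM. Jun rose from 24.4 ± 2.25 to 81.02 ± 6.60 CPM, and its mean with adult platelets was 70.4 ± 11.1 CPM, and the test of P7 minus adult did not pass (0.20 ± 0.11, adjusted p = 0.189). The members that fell were Nr4a2, a nuclear receptor, from 90.3 ± 27.2 to 28.6 ± 7.55 CPM (a log2 fold change of -1.66 ± 0.29, adjusted p = 0.000939), Fosl2, a Fos relative, from 603 ± 82.6 to 397 ± 36.03 CPM, and Btg1, an antiproliferative factor, from 722 ± 52.7 to 561 ± 7.11 CPM.

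**Figure D3:**
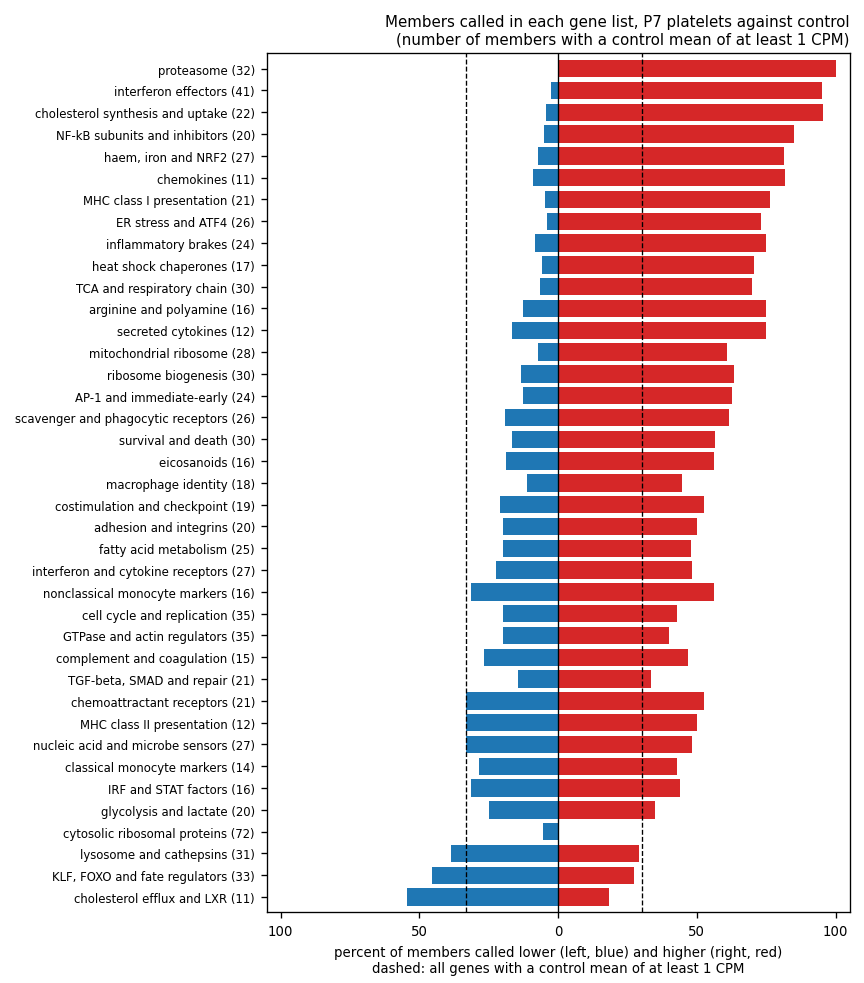
For each list, the bars give the percent of its members at 1 CPM or more in control (number in brackets) that were called higher (red, right) and lower (blue, left) with P7 platelets. Dashed lines mark 30.3% higher and 33.2% lower over all 11255 genes of that class. Proteasome, interferon effector and cholesterol synthesis genes have nearly all members higher, and ribosomal protein genes have nearly none called in either direction.

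Genes that mark monocyte subsets moved in both directions. Of 14 markers of classical monocytes, 6 rose, 4 fell and 4 did not pass the test (median -0.14), so the median and the balance of calls differed in sign. With upper-quartile scaling 2 rose and 4 fell, and without control replicate 2 or 3 the count was 2 each way. Hp, which encodes haptoglobin, the plasma protein that binds free haemoglobin, stood at 499, 421 and 423 CPM in the control libraries and 1401, 1889 and 1915 CPM with P7 platelets (a log2 fold change of 1.96 ± 0.28, adjusted p = 0.000253). Vcan, the proteoglycan versican, rose from 6035 ± 538 to 7527 ± 151 CPM. Mgst1, a microsomal glutathione transferase, fell from 121 ± 8.35 to 78.1 ± 1.91 CPM. Ly6c2, the surface marker of classical monocytes, rose from 389 ± 30.4 to 509 ± 11.3 CPM (a log2 fold change of 0.39 ± 0.12, adjusted p = 0.0175). Its call was lost with upper-quartile scaling (adjusted p = 0.0573) and without control replicate 2 (0.0541) or 3 (0.0654).

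Of 16 markers of nonclassical monocytes, 9 rose, 5 fell and 2 did not pass the test (median 0.43). Cx3cr1, the fractalkine receptor, stood at 487, 533 and 552 CPM in the control libraries and 1033, 1015 and 997 CPM with P7 platelets (a log2 fold change of 0.95 ± 0.10, adjusted p = 4.72e-05). Treml4, a receptor of the TREM family, rose from 27.8 ± 5.58 to 123 ± 23.5 CPM (a log2 fold change of 2.15 ± 0.35, adjusted p = 0.000604), and Cebpb, a factor that nonclassical monocytes need, from 208 ± 16.1 to 394 ± 57.4 CPM. Fcgr4, an Fc receptor of this subset, fell from 15.7 ± 1.65 to 5.80 ± 0.448 CPM (a log2 fold change of -1.44 ± 0.19, adjusted p = 0.00017), and Ace, angiotensin-converting enzyme, from 39.5 ± 9.78 to 16.7 ± 2.58 CPM (a log2 fold change of -1.24 ± 0.20, adjusted p = 0.000476). Nr4a1, the factor that nonclassical monocytes depend on, was at 129, 149.8 and 184 CPM in the control libraries and 167, 255 and 256 CPM with P7 platelets (a log2 fold change of 0.55 ± 0.19, adjusted p = 0.0333). The call of Nr4a1 was lost without control replicate 1 or 2, without P7 replicate 2 or 3 and with upper-quartile scaling (adjusted p = 0.0632 to 0.113).

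Of 18 genes of macrophage identity, 8 rose, 2 fell and 8 did not pass the test (median 0.35). Maf, a transcription factor of tissue macrophages, stood at 10.6, 7.77 and 11.4 CPM in the control libraries and 72.6, 79.4 and 86.1 CPM with P7 platelets (a log2 fold change of 3.000 ± 0.15, adjusted p = 9.71e-07). Stab1, which takes up altered lipoproteins, stood at 13.6, 10.7 and 13.7 CPM in the control libraries and 176, 97.8 and 99.4 CPM with P7 platelets (a log2 fold change of 3.30 ± 0.25, adjusted p = 7.09e-06). Its adult platelet mean was 131 ± 21.5 CPM, and the test of P7 minus adult did not pass (-0.07 ± 0.22, adjusted p = 0.828). Csf1r rose from 2038 ± 65.02 to 3389 ± 204 CPM (a log2 fold change of 0.73 ± 0.12, adjusted p = 0.000511) and Adgre1, the macrophage marker F4/80, from 262 ± 6.99 to 390.4 ± 14.3 CPM (a log2 fold change of 0.57 ± 0.09, adjusted p = 0.000591). The members that fell were Apoe, given above, and Trem2, a lipid-sensing receptor of macrophages, from 59.5 ± 1.68 to 26.1 ± 1.01 CPM (a log2 fold change of -1.19 ± 0.10, adjusted p = 1.27e-05). Itgam, the integrin chain CD11b, averaged 229.9 ± 10.2 CPM in control and 216 ± 25.2 CPM with P7 platelets (a log2 fold change of -0.09 ± 0.08, adjusted p = 0.354), and was called lower without P7 replicate 1 (adjusted p = 0.0178).

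**Figure D4:**
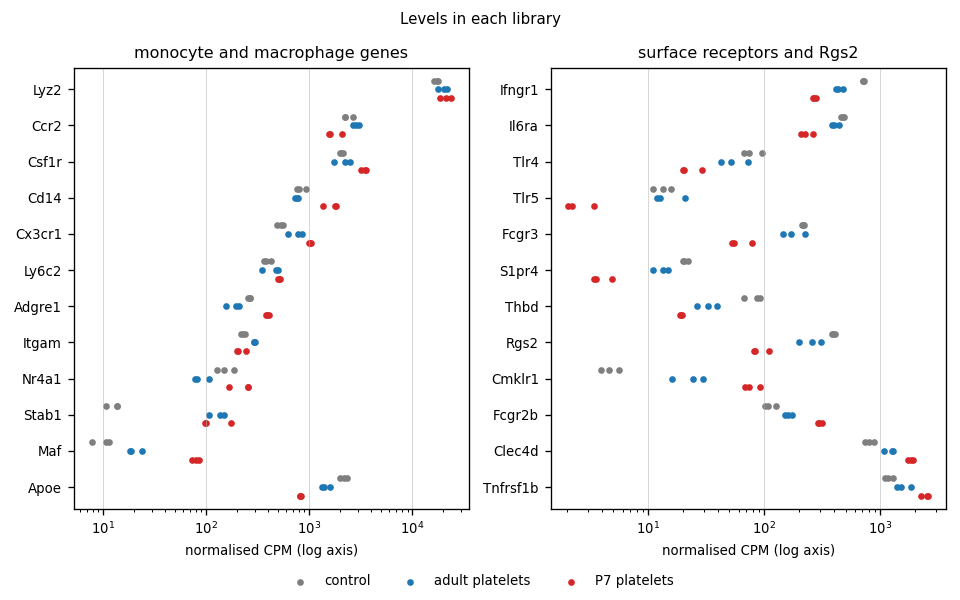
Normalised CPM (log axis) in each control (grey), adult platelet (blue) and P7 platelet (red) library for 12 genes of monocytes and macrophages and for 11 surface receptors and Rgs2. The P7 libraries of Csf1r, Cx3cr1, Cd14 and Maf lie above control, those of Ifngr1, Il6ra, Tlr4, Tlr5, Fcgr3, S1pr4, Thbd and Rgs2 lie below it, and Itgam overlaps with it.

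Regulators of quiescence and cell fate moved both ways, with 9 of 33 higher, 15 lower and 9 not past the test (median -0.13), beside 30.3% higher and 33.2% lower over all genes at 1 CPM or more. Tsc22d3, the glucocorticoid-induced leucine zipper, fell from 99.6 ± 7.65 to 45.8 ± 2.32 CPM (a log2 fold change of -1.12 ± 0.07, adjusted p = 2.18e-06), Rara, a retinoic acid receptor, from 108 ± 3.80 to 51.7 ± 4.27 CPM (a log2 fold change of -1.07 ± 0.08, adjusted p = 5.72e-06), and Foxo3, a factor of quiescence and stress resistance, from 75.9 ± 2.85 to 48.4 ± 1.52 CPM (a log2 fold change of -0.65 ± 0.05, adjusted p = 8.10e-06). Bhlhe40, a repressor that supports cytokine production, rose from 81.2 ± 8.33 to 468 ± 91.5 CPM (a log2 fold change of 2.53 ± 0.21, adjusted p = 1.10e-05), Gfi1, a repressor of the myeloid lineage, from 1.97 ± 0.435 to 11.9 ± 0.813 CPM, and Hif1a, the oxygen-sensitive factor, from 618 ± 48.8 to 1519 ± 108 CPM (a log2 fold change of 1.299 ± 0.11, adjusted p = 1.27e-05).

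Antigen presentation through MHC class I rose, with 16 of 21 members higher, 1 lower, the trimming peptidase Erap1, and 4 not past the test (median 0.50). Nlrc5, which drives class I genes, rose from 17.5 ± 2.94 to 45.5 ± 3.69 CPM, B2m, the common light chain, from 1179.6 ± 62.4 to 1774 ± 22.4 CPM, Psme2, of the proteasome activator, from 69.1 ± 0.129 to 125 ± 14.02 CPM, and Calr, a chaperone of loading, from 381 ± 10.4 to 649 ± 18.9 CPM. Class I heavy chain genes resemble one another closely, so their separate levels are uncertain.

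MHC class II genes moved in both directions, with 6 of 12 higher, 4 lower and 2 not past the test (median 0.40). Without control replicate 2, P7 replicate 2 or P7 replicate 3, 3 rose and 3 fell. Cd74, the invariant chain, rose from 542 ± 87.3 to 814 ± 129 CPM (a log2 fold change of 0.59 ± 0.16, adjusted p = 0.00935), and H2-Ab1, a chain that presents peptide, from 118 ± 21.6 to 175 ± 25.3 CPM (a log2 fold change of 0.56 ± 0.15, adjusted p = 0.00899). H2-DMa, which helps to load peptide, fell from 34.5 ± 1.08 to 17.96 ± 1.03 CPM (a log2 fold change of -0.94 ± 0.10, adjusted p = 3.68e-05), H2-DMb1, its partner, from 18.04 ± 0.639 to 10.99 ± 0.891 CPM, and Ctss, the protease that trims the invariant chain, from 1170.0 ± 33.7 to 962 ± 18.01 CPM.

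Ligands for T cells had 10 of 19 members higher, 4 lower and 5 not past the test (median 0.63). Cd40, which receives help from T cells, stood at 17.01, 17.01 and 18.6 CPM in the control libraries and 54.6, 96.6 and 107 CPM with P7 platelets (a log2 fold change of 2.29 ± 0.37, adjusted p = 0.00059). Cd274, which encodes the checkpoint ligand PD-L1, stood at 39.3, 42.4 and 48.7 CPM in the control libraries and 141, 203 and 213 CPM with P7 platelets (a log2 fold change of 2.10 ± 0.37, adjusted p = 0.00104). Lgals9, galectin 9, rose from 12.9 ± 0.481 to 34.9 ± 3.93 CPM and Pirb, an inhibitory receptor for class I molecules, from 340.1 ± 57.9 to 813 ± 8.29 CPM. Vsir, the checkpoint protein VISTA, fell from 431 ± 33.1 to 218 ± 28.9 CPM (a log2 fold change of -0.98 ± 0.12, adjusted p = 9.26e-05).

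Scavenger and phagocytic receptors rose in 16 of 26 members, fell in 5 and did not pass the test in 5 (median 0.63). Msr1, a receptor for modified lipoproteins, rose from 311 ± 20.5 to 657 ± 6.84 CPM (a log2 fold change of 1.08 ± 0.06, adjusted p = 2.03e-06), Clec4d and Clec4e, lectins that bind microbial glycolipids, from 810.2 ± 73.96 to 1816 ± 96.05 CPM and from 937 ± 57.95 to 3386 ± 578 CPM. The Fc gamma receptors changed unequally. Fcgr2b, the inhibitory receptor, stood at 125, 101 and 108 CPM in the control libraries and 311, 293 and 290.3 CPM with P7 platelets (a log2 fold change of 1.42 ± 0.09, adjusted p = 2.31e-06), and Fcgr3, an activating receptor, stood at 209.5, 219 and 217 CPM in the control libraries and 77.7, 55.01 and 52.6 CPM with P7 platelets (a log2 fold change of -1.80 ± 0.18, adjusted p = 3.13e-05). Lrp1, a receptor that clears many ligands, fell from 850.2 ± 100.3 to 515 ± 133 CPM (a log2 fold change of -0.72 ± 0.16, adjusted p = 0.00402).

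Genes of complement and coagulation had 7 of 15 members higher, 4 lower and 4 not past the test (median 0.12), and 5 each way with upper-quartile scaling. Thbd, thrombomodulin, which turns thrombin into an anticoagulant, stood at 66.4, 90.8 and 87.2 CPM in the control libraries and 19.5, 18.7 and 19.01 CPM with P7 platelets (a log2 fold change of -2.09 ± 0.15, adjusted p = 5.72e-06). Procr, the receptor for activated protein C, rose from 2.41 ± 0.113 to 11.4 ± 2.53 CPM, F10, coagulation factor X, from 400.1 ± 47.4 to 680.3 ± 5.93 CPM, and Serpinb2, an inhibitor of plasminogen activators, from 1.10 ± 0.460 to 12.5 ± 1.94 CPM. C3, the central complement protein, rose from 959 ± 22.6 to 1902 ± 169.6 CPM (a log2 fold change of 0.99 ± 0.12, adjusted p = 8.96e-05).

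Genes of TGF-beta signalling and repair had 7 of 21 members higher, 3 lower, Tgfbr2, Smad4 and Thbs1, and 11 not past the test (median 0.03). Mmp14, a membrane metalloprotease, stood at 18.6, 12.4 and 18.99 CPM in the control libraries and 225, 226 and 228 CPM with P7 platelets (a log2 fold change of 3.76 ± 0.30, adjusted p = 8.13e-06). Pdgfb, a growth factor for stromal cells, rose from 2.73 ± 1.18 to 24.5 ± 8.17 CPM (a log2 fold change of 3.17 ± 0.42, adjusted p = 0.000157) and had a mean with adult platelets of 9.64 ± 4.31 CPM. Thbs1, given above, had the largest fall of the list. With only the 5 libraries of low Igkc level the count was 8 each way.

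Cholesterol synthesis and uptake rose almost as a whole. Of 22 genes, 21 rose, 16 of them at least 2-fold, and 1 fell (median 1.52). Hmgcs1, an early enzyme of the pathway, stood at 129, 101 and 110.0 CPM in the control libraries and 461, 429 and 423 CPM with P7 platelets (a log2 fold change of 1.95 ± 0.13, adjusted p = 3.91e-06). Sqle, squalene epoxidase, rose from 34.3 ± 8.68 to 203 ± 21.4 CPM, Cyp51, lanosterol demethylase, from 85.1 ± 10.4 to 341 ± 17.6 CPM, and Hsd17b7, a sterol ketoreductase, from 6.13 ± 1.46 to 51.5 ± 5.40 CPM. Srebf2, the factor that drives the pathway, rose from 204 ± 9.74 to 449 ± 4.13 CPM (a log2 fold change of 1.14 ± 0.09, adjusted p = 7.37e-06). The member that fell was Ebp, a sterol isomerase, from 54.96 ± 5.13 to 46.6 ± 1.94 CPM (a log2 fold change of -0.24 ± 0.07, adjusted p = 0.021), whose call was lost without control replicate 1 and without P7 replicate 2 or 3 (adjusted p = 0.0680 to 0.0722). Against adult platelets, 18 of the 22 genes were higher, beside 20.7% over all genes at 1 CPM or more in control.

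Genes of cholesterol efflux had 2 of 11 members higher, 6 lower and 3 not past the test (median -0.14). Abcg1, a sterol exporter, stood at 57.2, 63.99 and 62.5 CPM in the control libraries and 23.9, 20.6 and 21.6 CPM with P7 platelets (a log2 fold change of -1.47 ± 0.14, adjusted p = 2.19e-05). Apoe, the acceptor of exported lipid, fell as given above, and so did Nceh1, Soat1 and Npc1, with log2 fold changes of -1.06, -0.42 and -0.53. Nr1h3, the sterol-sensing receptor LXR alpha, rose from 15.3 ± 1.26 to 38.1 ± 1.44 CPM (a log2 fold change of 1.31 ± 0.09, adjusted p = 3.93e-06), and Lipa, the lysosomal lipase, from 217 ± 13.4 to 386 ± 6.80 CPM.

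Of 25 genes of fatty acid metabolism, 12 rose, 5 fell and 8 did not pass the test (median 0.23). Lpl, lipoprotein lipase, rose from 147 ± 12.4 to 706 ± 169 CPM (a log2 fold change of 2.27 ± 0.24, adjusted p = 4.74e-05), and Fabp5, a fatty acid binding protein, from 5.68 ± 0.653 to 12.9 ± 0.504 CPM. Cpt1a, the gate of mitochondrial fatty acid oxidation, fell from 155 ± 5.65 to 70.3 ± 11.7 CPM (a log2 fold change of -1.14 ± 0.11, adjusted p = 2.80e-05), Acadm, an enzyme of the same route, from 51.4 ± 2.83 to 24.4 ± 1.71 CPM (a log2 fold change of -1.07 ± 0.07, adjusted p = 2.39e-06), and Pnpla2, the triglyceride lipase, from 126 ± 1.16 to 83.7 ± 3.14 CPM.

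In glycolysis, 7 of 20 genes rose, 5 fell and 8 did not pass the test (median 0.15), and with upper-quartile scaling 4 rose and 5 fell. The glucose transporters changed most. Slc2a3 stood at 10.9, 13.02 and 12.1 CPM in the control libraries and 91.2, 80.8 and 83.5 CPM with P7 platelets (a log2 fold change of 2.82 ± 0.16, adjusted p = 1.36e-06) and Slc2a1 rose from 39.01 ± 4.21 to 115 ± 6.92 CPM (a log2 fold change of 1.56 ± 0.09, adjusted p = 1.46e-06). Gpi1, glucose phosphate isomerase, and Hk3, a hexokinase of myeloid cells, fell from 453 ± 8.18 to 314 ± 10.2 CPM and from 41.6 ± 0.717 to 28.1 ± 2.31 CPM. Genes of the citric acid cycle and respiratory chain rose slightly, with 21 of 30 higher and 2 lower (median 0.25, largest 0.72 for Idh3a). With upper-quartile scaling 12 were higher and 5 lower. In a test against a fold of 1.2, only 3 were higher and none lower. Cs, citrate synthase, was among the lower members, and its call was lost whichever control or P7 library was left out, and without adult replicate 2, with DESeq2 size factors, without a filter and without carried transcripts (adjusted p = 0.0510 to 0.167). Mitochondrial ribosomal proteins had 17 of 28 higher and 2 lower, Mrpl9 and Mrps35 (median 0.27).

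Of 72 cytosolic ribosomal protein genes, 4 fell and 68 did not pass the test (median -0.04). The 4 that fell, among them Rpl22, Rpl32 and Rps4x, had log2 fold changes of -0.22 to -0.16, and with upper-quartile scaling 28 were lower (median -0.14). The call of Rpl22 was lost without control replicate 2 (adjusted p = 0.0652) and without P7 replicate 3 (0.0562). Many of these genes have processed copies that can share reads. Factors that assemble ribosomes rose in 19 of 30 members and fell in 4 (median 0.40). The largest rises were Nop58, of small nucleolar RNPs, from 35.4 ± 0.476 to 83.6 ± 1.26 CPM (a log2 fold change of 1.24 ± 0.04, adjusted p = 2.67e-07), and Gnl3, nucleostemin, from 16.4 ± 0.192 to 35.2 ± 0.862 CPM.

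All 32 listed proteasome genes rose, by log2 fold changes of 0.18 to 0.85 (median 0.54), none of them 2-fold. With upper-quartile scaling 27 of the 32 were called higher. Psmd12 and Psmd1, of the regulatory particle, rose from 69.5 ± 0.638 to 122 ± 1.46 CPM and from 119 ± 2.68 to 215 ± 2.93 CPM, and the ATPases Psmc2 and Psmc6 from 105 ± 3.57 to 184 ± 2.89 CPM and from 109 ± 3.63 to 159 ± 1.34 CPM. Against adult platelets 26 of the 32 were higher, beside 20.7% over all genes at 1 CPM or more in control.

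Genes of the ATF4 and ER stress responses rose in 19 of 26 members and fell in 1, Ddit3 (median 0.45). Asns, asparagine synthetase, stood at 78.3, 75.8 and 77.3 CPM in the control libraries and 209.9, 233 and 228 CPM with P7 platelets (a log2 fold change of 1.54 ± 0.06, adjusted p = 3.47e-07). Slc7a11, the cystine importer, rose from 71.9 ± 25.3 to 509 ± 132 CPM (a log2 fold change of 2.82 ± 0.35, adjusted p = 0.000112), Hspa5, the ER chaperone BiP, from 412 ± 16.4 to 869 ± 77.6 CPM (a log2 fold change of 1.08 ± 0.08, adjusted p = 7.37e-06), and Ddit4, an inhibitor of mTOR, from 9.04 ± 0.186 to 25.1 ± 0.520 CPM. Ddit3, the death-promoting factor CHOP, fell from 15.1 ± 0.514 to 12.6 ± 1.04 CPM (a log2 fold change of -0.26 ± 0.10, adjusted p = 0.0373), a call lost without any 1 control library, without P7 replicate 2 or 3 and with the DESeq2 Wald test (adjusted p = 0.0513 to 0.130). Heat shock chaperones rose in 12 of 17 members and fell in 1, Hspa8 (median 0.44). The call of Hspa8 was lost without control replicate 1 (adjusted p = 0.0597) and without a filter (0.0653). Hsp90aa1, an inducible HSP90, rose from 111 ± 3.32 to 203 ± 3.64 CPM.

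Lysosomal genes had 9 of 31 members higher, 12 lower and 10 not past the test (median -0.03), and 11 each way with the DESeq2 Wald test. The cathepsins Ctsb and Ctsz rose from 739.6 ± 39.4 to 1433 ± 36.4 CPM and from 421 ± 20.8 to 926 ± 33.5 CPM. Man2b1, a lysosomal mannosidase, fell from 411 ± 6.40 to 266 ± 5.15 CPM.

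Genes of haem, iron and the NRF2 antioxidant response rose in 22 of 27 members, fell in 2 and did not pass the test in 3 (median 0.98). The libraries in which they rose also held the red cell transcripts described above, and the part of red cell RNA in these rises was not tested. Hmox1, haem oxygenase 1, which degrades haem, stood at 202, 229 and 248 CPM in the control libraries and 476, 556 and 579 CPM with P7 platelets (a log2 fold change of 1.25 ± 0.13, adjusted p = 4.52e-05). Blvrb, biliverdin reductase B, stood at 14.6, 13.4 and 15.5 CPM in the control libraries and 69.6, 71.5 and 74.95 CPM with P7 platelets (a log2 fold change of 2.31 ± 0.12, adjusted p = 8.78e-07). Slc48a1, which moves haem out of the phagosome, rose from 46.4 ± 1.29 to 107 ± 9.53 CPM (a log2 fold change of 1.21 ± 0.08, adjusted p = 2.54e-06), and Slc11a2, an iron transporter, from 20.9 ± 1.06 to 38.5 ± 2.01 CPM.

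Ferritin light chain, Ftl1, rose from 1282 ± 56.3 to 2514 ± 73.1 CPM (a log2 fold change of 0.97 ± 0.11, adjusted p = 5.54e-05), in addition to Fth1. Sod2, the mitochondrial superoxide dismutase, stood at 132, 104 and 123 CPM in the control libraries and 587, 724 and 766 CPM with P7 platelets (a log2 fold change of 2.53 ± 0.26, adjusted p = 3.41e-05). Nqo1, Srxn1 and Txnrd1, which NRF2 induces, rose from 1.65 ± 0.347 to 7.51 ± 0.404 CPM, from 73.6 ± 14.9 to 245 ± 43.6 CPM and from 269 ± 33.04 to 731 ± 108 CPM, and Nfe2l2, which encodes NRF2, from 472 ± 45.7 to 1161 ± 188 CPM (a log2 fold change of 1.298 ± 0.19, adjusted p = 0.000332). The members that fell were Bach1, the haem-binding repressor of NRF2 targets, from 345 ± 6.49 to 237 ± 27.6 CPM (a log2 fold change of -0.54 ± 0.08, adjusted p = 0.000438), and Flvcr1, a haem exporter, from 25.2 ± 1.59 to 21.1 ± 2.02 CPM (a log2 fold change of -0.26 ± 0.08, adjusted p = 0.015). The call of Flvcr1 was lost without control replicate 1 and without P7 replicate 2 or 3 (adjusted p = 0.0504 to 0.0624). Against adult platelets 21 of the 27 genes were higher and 1, Bach1, lower. Over all genes at 1 CPM or more in control, 20.7% were higher and 22.9% lower than with adult platelets.

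**Figure D5:**
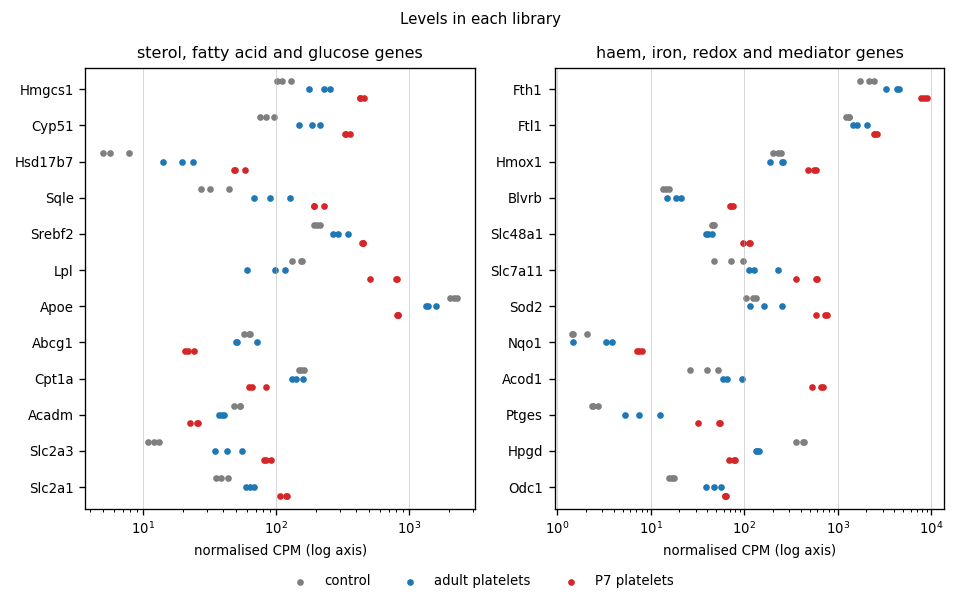
Normalised CPM (log axis) in each control (grey), adult platelet (blue) and P7 platelet (red) library for 12 genes of sterol, fatty acid and glucose metabolism and 12 genes of haem, iron, redox balance and mediators. Hmgcs1, Cyp51 and Hsd17b7 rise from control over adult to P7 platelets, Hmox1, Blvrb and Slc48a1 have adult libraries near control, and Apoe, Abcg1, Cpt1a, Acadm and Hpgd are lower with P7 platelets than in control.

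Enzymes of arginine and polyamine metabolism rose in 12 of 16 members, fell in 2 and did not pass the test in 2 (median 0.60). Acod1, which makes the antibacterial metabolite itaconate, stood at 52.4, 26.1 and 40.04 CPM in the control libraries and 532, 663 and 697 CPM with P7 platelets (a log2 fold change of 3.996 ± 0.28, adjusted p = 4.11e-06). Odc1, which starts polyamine synthesis, rose from 16.6 ± 0.866 to 62.5 ± 1.08 CPM, Ass1, which regenerates arginine, from 47.4 ± 3.52 to 171 ± 7.13 CPM, and Smox, spermine oxidase, from 62.97 ± 8.59 to 144 ± 9.64 CPM. Sat1, which marks polyamines for export, fell from 651 ± 30.1 to 371 ± 11.02 CPM (a log2 fold change of -0.81 ± 0.07, adjusted p = 1.04e-05), and Amd1, which supplies a building block of polyamines, from 39.3 ± 2.82 to 34.4 ± 1.46 CPM (a log2 fold change of -0.19 ± 0.06, adjusted p = 0.0206). Amd1 has a near-identical copy that can share reads, and it was no longer called without control replicate 2 (adjusted p = 0.0833) or P7 replicate 1 (0.0722).

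Eicosanoid genes had 9 of 16 members higher, 3 lower and 4 not past the test (median 0.71). Ptges, which makes prostaglandin E2, stood at 2.40, 2.36 and 2.68 CPM in the control libraries and 32.2, 55.01 and 53.2 CPM with P7 platelets (a log2 fold change of 4.23 ± 0.33, adjusted p = 7.87e-06). Ptgs2, the inducible cyclooxygenase, rose from 18.2 ± 4.78 to 62.2 ± 20.7 CPM (a log2 fold change of 1.77 ± 0.28, adjusted p = 0.00047), and Pla2g4a, which frees arachidonic acid, from 9.29 ± 0.835 to 30.4 ± 2.02 CPM. The lower members were Hpgd, described above, Alox5ap, the partner of 5-lipoxygenase, from 532 ± 32.03 to 393 ± 36.5 CPM (a log2 fold change of -0.44 ± 0.09, adjusted p = 0.00298), and Lta4h, which makes leukotriene B4, from 117 ± 2.90 to 94.7 ± 7.41 CPM (a log2 fold change of -0.30 ± 0.07, adjusted p = 0.00359). The transcripts of Ptges, Ptgs2 and Pla2g4a thus rose where that of Hpgd fell. Prostaglandin E2 itself was not measured here.

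Of 30 genes of survival and death, 17 rose, 5 fell and 8 did not pass the test (median 0.29). Bcl2a1d, a survival protein with near-identical copies that can share reads, rose from 8.88 ± 2.59 to 39.99 ± 13.2 CPM, and Bcl2l1, which encodes Bcl-xL, from 16.3 ± 0.903 to 36.8 ± 2.93 CPM (a log2 fold change of 1.18 ± 0.09, adjusted p = 5.61e-06). Fas, a death receptor, rose from 56.2 ± 7.27 to 188 ± 8.36 CPM. Bid, which carries a death signal to mitochondria, stood at 86.2, 92.9 and 90.1 CPM in the control libraries and 32.8, 28.8 and 28.6 CPM with P7 platelets (a log2 fold change of -1.58 ± 0.10, adjusted p = 2.20e-06). Bmf, a death protein of the BH3 kind, fell from 92.7 ± 2.28 to 43.5 ± 9.09 CPM (a log2 fold change of -1.09 ± 0.17, adjusted p = 0.000424).

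Cell cycle genes had 15 of 35 members higher, 7 lower and 13 not past the test (median 0.17). Ccnd2, cyclin D2, rose from 2.28 ± 0.205 to 14.2 ± 4.26 CPM, Cdk6, its kinase, from 16.1 ± 0.856 to 39.3 ± 3.12 CPM, and Cdkn1a, the inhibitor p21, from 161 ± 15.8 to 381 ± 85.7 CPM. Cdkn1b, the inhibitor p27, fell from 168 ± 8.63 to 92.3 ± 4.54 CPM (a log2 fold change of -0.87 ± 0.05, adjusted p = 2.49e-06). Regulators of GTPases and actin had 14 of 35 higher, 7 lower and 14 not past the test (median 0.11). Rgs2, which shortens G protein signals, stood at 384, 403 and 392 CPM in the control libraries and 109, 81.9 and 83.6 CPM with P7 platelets (a log2 fold change of -2.10 ± 0.16, adjusted p = 7.08e-06). Marcksl1, a membrane-bound actin regulator, rose from 112 ± 10.04 to 649 ± 144 CPM (a log2 fold change of 2.53 ± 0.28, adjusted p = 5.89e-05), and Arhgap25, which switches off Rac, fell from 66.4 ± 5.45 to 28.9 ± 2.22 CPM.

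Below 1 CPM in control, 690 of 2452 genes rose and 281 fell, and 627 rose at least 2-fold (25.6%). A split on the control level leans these genes towards rises by construction. Of the 627, 22 belong to the platelet list, 14 to the erythroid list and 41 to a list of a monocyte process, 156 have predicted or clone names and 50 had no count in any control library. Against adult platelets 338 of the 627 were higher, 20 lower and 269 did not pass the test. The 627 were chosen by a rise in the same P7 libraries, which leans them towards higher levels than with adult platelets. The share over all 2452 genes of the class is not given here. A mean of at least 5 CPM with P7 platelets was reached by 87.

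Platelet and red cell transcripts were among the largest rises of this class. Myl9, a myosin light chain of platelets, averaged 338 ± 11.3 CPM with P7 and 129.8 ± 41.7 CPM with adult platelets. Tubb1, the tubulin of the platelet ring, averaged 64.1 ± 6.32 and 33.7 ± 7.60 CPM. Both were at or under 0.128 ± 0.0246 CPM in control. Tspo2, a red cell membrane protein, averaged 14.1 ± 1.94 CPM with P7 and 0.422 ± 0.178 CPM with adult platelets. P7 and adult platelets differed by 1.38 ± 0.20, adjusted p = 0.0008 in Myl9 and by 5.06 ± 0.25, adjusted p = 4.81e-06 in Tspo2.

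Outside the carried lists, 8 genes with a P7 mean of at least 5 CPM had the largest fold changes of this class. The lists may not hold every platelet or red cell transcript. These 8 genes may thus include carried RNA, and its part in them was not tested. Il12b, a subunit of interleukin 12, had 1 count in the control libraries together and 22.6, 54.9 and 50.5 CPM with P7 platelets, a ratio of 4977 with an exact 95% interval of 893 to 196600.0, which covers counting error only. With adult platelets it averaged 1.49 ± 1.90 CPM (4.81 ± 0.68, adjusted p = 0.000693 for P7 minus adult). Rec114, a meiotic gene, had 1 count in control and 9.64, 8.14 and 10.6 CPM with P7 platelets, a ratio of 1119 (200.2 to 44240.0), and 0.233 ± 0.211 CPM with adult platelets (5.34 ± 0.46, adjusted p = 6.48e-05). Both genes were far lower with adult than with P7 platelets.

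Draxin, an axon guidance gene, had no count in control and 7.93, 7.09 and 7.45 CPM with P7 platelets, at least 294-fold higher when the 3 control libraries together are set to 3 counts. Its adult platelet mean was 9.84 ± 3.07 CPM. Slamf1, a costimulatory receptor, had 3 counts in control, 15.6 ± 2.49 CPM with P7 and 13.5 ± 3.51 CPM with adult platelets. Gchfr, a regulator of biopterin synthesis, averaged 13.2 ± 1.56 and 8.75 ± 3.69 CPM, Fhl1, a LIM-domain protein, 34.05 ± 3.65 and 35.2 ± 9.54 CPM, and Cdc42ep5, an effector of Cdc42, 9.23 ± 0.566 and 7.18 ± 2.64 CPM. These 5 genes did not pass the test of P7 minus adult. Gucy1b1, a subunit of the nitric oxide receptor, averaged 6.40 ± 1.16 and 3.71 ± 0.937 CPM (0.79 ± 0.24, adjusted p = 0.0281).

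Other immune genes in this class included Ifnb1, interferon beta, with 1 count in control and 64 with P7 platelets, a ratio of 85.96 (14.9 to 3447). Lif, a cytokine of the interleukin 6 family, rose from 0.844 ± 0.212 to 11.4 ± 3.56 CPM, Igf1, a growth factor of repair, from 0.196 ± 0.0347 to 3.83 ± 0.462 CPM, and Slc7a2, an arginine importer, from 0.988 ± 0.0786 to 17.6 ± 3.94 CPM. Il10, an anti-inflammatory cytokine, rose from 0.355 ± 0.145 to 3.29 ± 1.09 CPM (a log2 fold change of 3.19 ± 0.37, adjusted p = 7.36e-05). The adult platelet means of these last 4 genes were 1.73 ± 0.493, 0.870 ± 0.217, 4.97 ± 2.06 and 0.600 ± 0.168 CPM.

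The direct test of P7 against adult platelets compares the levels with these 2 preparations. Globin and Alas2 transcripts made up 4.92% of counts with P7 and 0.0973% with adult platelets, so the kind of platelet and the red cell material that came with it cannot be told apart in this test. Among the 11255 genes at 1 CPM or more in control, 2325 were higher with P7 than with adult platelets (20.7%) and 2572 lower (22.9%). Both comparisons use the same P7 libraries, so their calls are not independent. Of the 3407 genes that rose against control, 2105 were also higher than with adult platelets, 22 lower and 1280 did not pass that test. Of the 3733 that fell, 2297 were also lower, 17 higher and 1419 did not pass.

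Apart from the globins and Bpgm, the largest differences over adult platelets were those of Ifit1 (5.68 ± 0.35, adjusted p = 1.17e-05) and Rsad2 (5.54 ± 0.18, adjusted p = 1.89e-06). Of the 41 interferon effectors, 39 were higher than with adult platelets and 1 lower, with a median difference of 2.59. The largest differences in the other direction were Tlr5 (-2.55 ± 0.27, adjusted p = 0.000199), Zfyve28, which encodes an endosomal zinc finger protein (-2.53 ± 0.28, adjusted p = 0.000236), Arhgef18 (-2.21 ± 0.16, adjusted p = 2.62e-05), Angpt1, angiopoietin 1 (-2.20 ± 0.38, adjusted p = 0.00194), Htra3, a serine protease (-2.18 ± 0.46, adjusted p = 0.00479), and Fam83f (-2.18 ± 0.48, adjusted p = 0.00602). Angpt1 was at 1.90, 1.15 and 0.557 CPM in control, 4.45, 4.81 and 6.23 CPM with adult platelets and 1.34, 0.792 and 1.22 CPM with P7 platelets, so it differed between the 2 kinds of platelet while P7 and control overlapped. Htra3 and Fam83f did not pass the test against control either (a log2 fold change of -0.57 ± 0.47, adjusted p = 0.322, and a log2 fold change of -1.02 ± 0.48, adjusted p = 0.0955). Fam83f was called lower without P7 replicate 1 (adjusted p = 0.00504). With only the 5 libraries of low Igkc level both were called lower against control, Htra3 with a log2 fold change of -0.99 (adjusted p = 0.0207) and Fam83f with -1.74 (adjusted p = 0.000334).

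Csf1 was 1 of the 17 genes lower than in control and higher than with adult platelets, at 58.6, 99.6 and 92.8 CPM in control, 15.1, 16.7 and 19.8 CPM with adult platelets and 26.5, 46.2 and 50.96 CPM with P7 platelets (1.26 ± 0.27, adjusted p = 0.00505 for P7 minus adult). Adult platelet means lay between control and P7 platelets for many genes described above, including Hmgcs1 at 219 ± 38.8 CPM, Cxcl16 at 247 ± 49.98 CPM, Hpgd at 138 ± 5.95 CPM and Ifngr1 at 438 ± 31.7 CPM. For genes such as Ddx58 at 11.95 ± 0.376 CPM, Irf7 at 21.9 ± 2.51 CPM, Blvrb at 18.1 ± 3.18 CPM and Ccl6 at 295 ± 29.9 CPM, the adult platelet mean lay close to control.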

How the data were processed

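Libraries were made from mRNA with a stranded kit and sequenced as single reads of 75 nt, per the labels' protocols. The authors deposited raw counts of reads per gene symbol. Per the submitters' processing notes the tools included Salmon 1.3.0, Subread 2.0.1, featureCounts, STAR 2.7.6a and fastp 0.20.1, with no role given. Not given in the sources used here are genome build, annotation and whether strand was used. Reads shared by overlapping genes or near-identical copies may be split, lost or misassigned.

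Total counts were 29687341 to 37065564 per library. Genes were kept by filterByExpr (minimum count 10) and fitted with edgeR 4.0.16 (R 4.3.3) by quasi-likelihood, with TMM scaling, 1 mean per group over all 9 libraries (6 residual degrees of freedom) and Benjamini-Hochberg adjustment over all 13707 genes. SE is the log2 fold change divided by the root of the F statistic. The biological coefficient of variation was 0.114. The fit was run on simulated data with few changed genes and 1 spread for all genes. That run does not show how the fit performs where most genes change. Shares of counts were compared with exact two-sided permutation tests.

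Named genes are the 12 strongest rises and falls and the largest gains and losses in CPM. Called members of each list with the smallest p were also named. So were the strongest genes below 1 CPM and the largest differences from adult platelets. All other genes named were chosen after their values were seen. Members and lists were chosen with earlier results of these data known. Replicate numbers are shared between groups. Deviations of same-numbered control and P7 libraries from their group means had r = 0.677, 0.294 and 0.454. Deviations cancel out within a group, so these values are not independent and do not show separate pairs. Control and P7 numbers were taken as pairs only for the replicate block, and the main fit used no pairs. Replicates 2 and 3 were not told apart by this (r = 0.476 for control 2 with P7 3, and 0.267 for control 3 with P7 2). Same-numbered adult and P7 libraries had r = 0.583, 0.366 and -0.122 and were not taken as pairs. Alternatives were other scalings, filters, tools, splits, a replicate block, a fold threshold and leaving out each library. Restriction to the 5 libraries of low Igkc was added after seeing the data. Promoter windows came from the RefSeq table of GRCm38.p6. Some genes are not reported here.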

Additional observations from a re-analysis of the deposited data

How the results depend on the processing

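The 8111 changed genes became 7101 to 8482 when 1 library was left out, 8122 with DESeq2 size factors, 7930 without a filter, 7885 with the DESeq2 Wald test, 8111 with limma-voom, 8532 with only control and P7 platelets, 8054 without carried transcripts and 9345 with only the libraries of low Igkc. With a replicate block over all 9 libraries, of which the adult ones share only a number with P7, 8565 genes changed, and 9003 with the block over control and P7 libraries alone. A test against a fold of 1.2 left 5185 changed, 1943 higher and 2416 lower, and 2148 that differed between P7 and adult platelets. Of 317 genes followed through the settings, 32 lost their call in that test. Among them were Cd79a, Cs, Ddit3, Flvcr1, Ebp, Ly6c2, Dusp5, Nr4a1, Rpl22, Hspa8 and Amd1. The accounts of lost calls given with these genes leave that test out. With a mean of at least 50 counts, 169 genes under 1 CPM rose at least 2-fold, and 373 when the split used the mean over all libraries. That split by the mean over all libraries had 903 genes at 1 CPM or more that rose and 680 that fell at least 2-fold. With the split at 5 CPM, 455 genes above it rose and 453 fell at least 2-fold. The difference in mitochondrial share was 0.769 to 0.993 without 1 library. Angpt1, not past the test, had a difference above 0 with limma-voom (0.0447), without control replicate 1 (0.392), without P7 replicate 2 (0.0868) and with low Igkc (0.259). Ifitm3, also not past the test, did so with DESeq2 size factors (0.00415), the DESeq2 Wald test (0.00413), without adult replicate 2 (0.00444), control replicate 2 (0.00781) or P7 replicate 1 (0.0547), and with low Igkc (0.0580). Without 1 library Angpt1 ranged from -0.448 to 0.392 and Ifitm3 from -0.0507 to 0.0547. The block changed the call of no other named gene than Fam83f, which was called lower with the block over control and P7 libraries alone (adjusted p = 0.0270). The causes were not tested. Depth limits genes near 1 CPM, where 1 library holds about 30 counts.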
